A study of Mus musculus with 9 samples.

Results

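The organic ion and drug transporters of mouse kidney were taken as the protein-coding genes named Slc22a, Slco, Slc47a, Slc17a or Abcc followed by a number, together with Abcb1a, Abcb1b and Abcg2. This rule uses names only and found 63 of the 52636 genes in the count table. They comprised 25 SLC22 genes, 14 genes of the organic anion transporting polypeptide (OATP) family, 10 ABCC genes, 9 SLC17 genes, 3 genes for P-glycoprotein and ABCG2, and 2 genes of the MATE family. Kidney RNA had been sequenced in 9 libraries, with 3 replicates each for the wild type (WT) and for 2 Nfkb1 knock-in alleles, C59A and C59S, in which cysteine 59 of the NF-kB subunit p50 was replaced. The labels call C59A activated and C59S inactivated, while the design text orders the effects on DNA binding the other way round, so the direction of each allele is taken here from neither. Both alleles came from C57BL/6NTac-derived embryonic stem cells and were made with a neomycin cassette driven by the PGK promoter in a nearby intron, which WT mice do not carry. Age, sex, zygosity, treatment and whether kidneys were pooled are not given in the sources used here. Nothing in the labels says that replicates came from separate animals, so p-values measure the spread between these libraries, which may in part be technical.

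Transporters of these families move drugs, toxins, urate, bile acids, steroid conjugates and vitamins across the proximal tubule. Uptake from blood across the basolateral membrane is the known work of the organic anion transporters OAT1 and OAT3 and of the organic cation transporter OCT2, which belong to the SLC22 family. Release into urine across the apical membrane is the work of MATE proteins and of ATP-driven pumps of the ABCC, ABCB1 and ABCG2 families, and URAT1 exchanges urate there. Several of these genes are known in mouse kidney for levels that differ between males and females.

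The members with the clearest differences between genotypes included 4 neighbours on chromosome 19, Slc22a27 (ENSMUSG00000067656), Slc22a28 (ENSMUSG00000063590), Slc22a29 (ENSMUSG00000075044) and Slc22a30 (ENSMUSG00000052562). They encode rodent organic anion transporter-like proteins and lie on the minus strand between bases 7864388 and 8405111 of GRCm38. Slc22a28 and Slc22a30 were higher in C59A, while Slc22a27 and Slc22a29 were lower. The 250 bases before the RefSeq start (GRCm38.p6) are shown for the pair that was higher and for the neighbour between them that was lower, 5′ to 3′ on the gene's strand. They lie at chr19:8131983-8132232 (Slc22a28), chr19:8405106-8405355 (Slc22a30) and chr19:8218901-8219150 (Slc22a29). Capitals mark bases that differ from Slc22a30 in the Slc22a28 line, and bases that differ from Slc22a28 in the other 2 lines, in a global alignment.
Slc22a28: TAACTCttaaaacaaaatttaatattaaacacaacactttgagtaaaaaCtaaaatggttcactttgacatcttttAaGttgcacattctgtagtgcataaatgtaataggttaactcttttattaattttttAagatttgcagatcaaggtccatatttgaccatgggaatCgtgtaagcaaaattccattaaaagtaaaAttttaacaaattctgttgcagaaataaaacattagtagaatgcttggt
Slc22a30: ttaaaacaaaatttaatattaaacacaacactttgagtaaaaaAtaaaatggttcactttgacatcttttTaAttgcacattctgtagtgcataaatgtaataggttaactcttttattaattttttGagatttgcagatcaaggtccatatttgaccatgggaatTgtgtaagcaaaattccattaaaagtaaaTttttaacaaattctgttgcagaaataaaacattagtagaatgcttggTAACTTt
Slc22a29: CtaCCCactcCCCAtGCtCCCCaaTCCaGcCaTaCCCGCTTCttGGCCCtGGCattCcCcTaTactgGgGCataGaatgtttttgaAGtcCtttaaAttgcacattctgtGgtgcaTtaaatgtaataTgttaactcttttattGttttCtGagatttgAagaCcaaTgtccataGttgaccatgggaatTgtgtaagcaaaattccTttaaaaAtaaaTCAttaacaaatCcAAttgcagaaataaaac
The Slc22a28 and Slc22a30 windows were identical at 93.0% of aligned columns, and each had 12 capitals, the longest run of which comes from a small offset between the annotated starts. Slc22a29 differed from Slc22a28 at 67 of its bases, most of them in the part farthest from the start, and was identical at 65.1% of columns. The Slc22a27 window was identical to those of Slc22a29 and Slc22a28 at 51% and 49.3% of columns. That lies close to the 44.3% to 50.9% found for the 8 pairings of these neighbours with Slc22a12, which is farther away on the chromosome. In transcript sequence (GENCODE M21) Slc22a28 and Slc22a30 were identical at 98.9% of 1485 columns and Slc22a27 and Slc22a29 at 96.8% of 2088. These come from local alignments of the longest transcripts, which leave out ends that do not match. They are therefore not on the same measure as the global alignments of the promoter windows.

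A RefSeq promoter was matched to 51 of the 63 members, giving 63 windows where several starts are annotated. Searched on both strands, the NF-kB consensus was found in 1 of the 63 windows (1.59%, against 3.9% of all 32851 mouse promoters). That window belongs to 1 of the 3 annotated starts of Abcg2 (chr6:58596422-58596671), and the windows of its other starts have no match. The consensus is not in the 3 windows printed above. The match is one of letters only, and other motifs that were searched are not reported here.

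Total counts ranged from 16367403 to 25787659 per library, at which 3 reads correspond to 0.112 to 0.202 CPM. CPM are counts scaled to 1e+06 per library total after trimmed-mean (TMM) scaling, and are used to compare libraries. FPKM, as deposited, are per gene length and are used to compare genes. The share of counts in members was 0.710 ± 0.0683% for WT, 0.694 ± 0.102% for C59A and 0.538 ± 0.109% for C59S (SD, n = 3). Mitochondrial genes took 18.2 ± 1.65%, 24.9 ± 4.00% and 28.8 ± 10.48%, with 40.6% in C59S replicate 3. The labels give no sex, but the X-inactivation transcript Xist was at most 0.724 CPM in C59A, where WT libraries had 815 to 1274 CPM and C59S libraries 884 to 894 CPM. The Y-linked gene Eif2s3y lay at 81.9 to 88.6 CPM in C59A, at 0.143 CPM or less in WT and at 1.15 CPM or less in C59S. The C59A allele and these sex-linked reads cannot be told apart in any comparison that involves C59A. The 10 proximal tubule markers summed to 12177 to 13541 CPM in WT, 10620 to 13477 in C59A and 8771 to 10607 in C59S. The sum in C59A joins markers that went opposite ways against WT. Slc5a2 was lower (log2 fold change -1.44, edgeR adjusted p = 0.00412), while Ggt1 (0.83, 0.00986) and Slc7a13 (8.16, 1.45e-06) were higher. The other markers of this list were not called, and the sum does not show a level content of these cells. The 4 adipocyte markers stayed under 1 CPM in WT but summed to 126 CPM in C59A replicate 3, 272 in C59S replicate 2 and 596 in C59S replicate 3. The 4 adrenal cortex markers summed to 79.1 CPM in C59S replicate 2 and to 3.03 to 5.97 CPM in the others. In whole tissue, fewer cells of a type and less RNA per cell cannot be told apart.

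By level, the set was led by SLC22 genes. Over the 9 libraries, 7 members had a mean of at least 100 FPKM, 17 had 10 to 100, 19 had 1 to 10 and 20 had less than 1. Slc22a8, which encodes the basolateral anion transporter OAT3, had the highest mean (305 FPKM), followed by the orphan transporter gene Slc22a18 (291), Slc22a12 for URAT1 (283) and Slc47a1 for the apical cation exporter MATE1 (204). Slc22a6 for OAT1 (115), Slc22a2 for OCT2 (109) and Slc22a7 for OAT2 (108) came next. The ranges of the first 3 over libraries overlapped, with 130 to 403 FPKM for Slc22a8, 237 to 393 for Slc22a18 and 123 to 585 for Slc22a12, so their order is not fixed by these values. The most abundant OATP gene was Slco1a6 (27.0 FPKM), the most abundant ABC genes were Abcc2 (25.0) and Abcg2 (23.8), and the SLC17 family was led by Slc17a1 (90.7) and Slc17a3 (33.8).

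**Figure D1:**
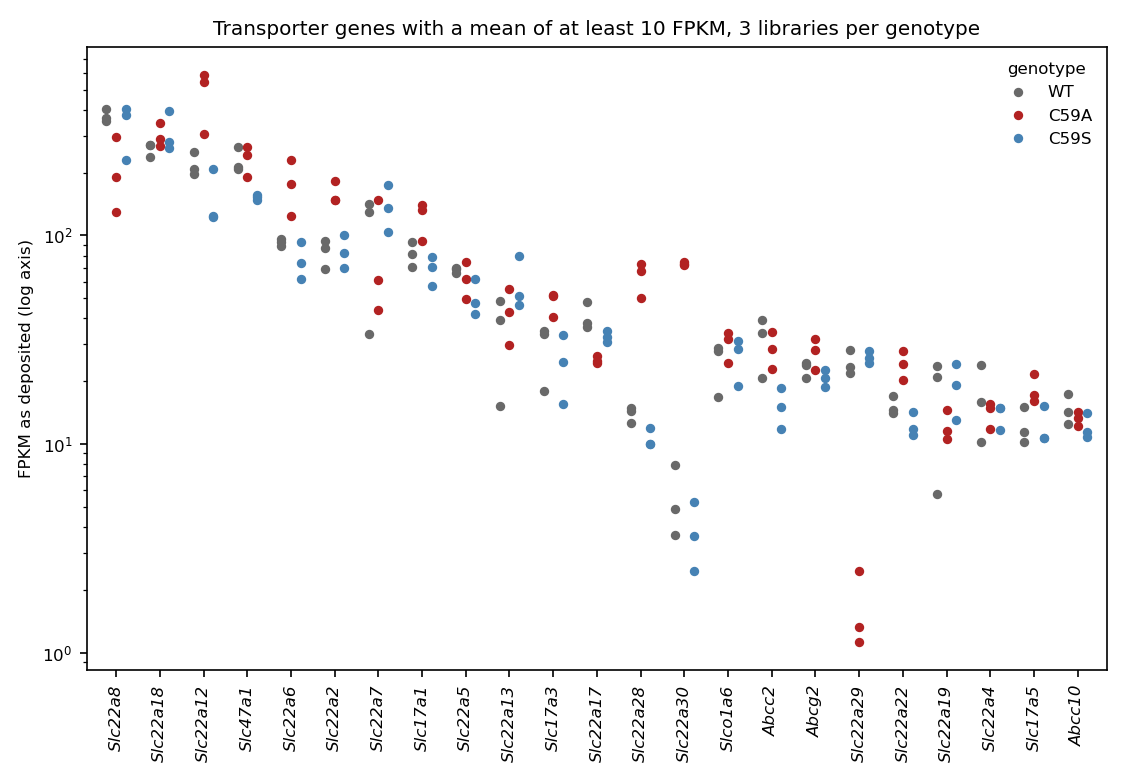
FPKM as deposited (log axis) of 23 of the 24 members with a mean of at least 10 FPKM, ordered by that mean, with 1 point per library and genotypes by colour. Slc22a12, Slc22a6, Slc22a2, Slc22a28 and Slc22a30 have all 3 C59A points above the others, and Slc22a29 has its C59A points near 1 to 2.5 FPKM while WT and C59S lie above 20.

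A filter on low counts left 51 members for testing, 23 of SLC22, 9 of ABCC, 8 of OATP, 6 of SLC17, 3 of ABCB1 and ABCG2 and 2 of MATE. The 12 left out had at most 16 reads in any library. They were Slc17a6, Slc17a7 and Slc17a8, which encode vesicular glutamate transporters, Slc22a16, Slc22a20, Slco1a5, Slco1b2, Slco1c1, Slco5a1, Slco6c1, Slco6d1 and Abcc12. Slco6c1 and Slco6d1 had no read in any library, which allows up to 3 reads each per library, or 0.112 to 0.202 CPM.

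The first comparison asks how C59A differed from WT. Of the 51 tested members, 18 were called by the edgeR quasi-likelihood test (Benjamini-Hochberg adjusted p under 0.05 over all 17114 genes tested), which is 35.3% against 5.7% of all genes. The 18 divided into 9 higher and 9 lower (17.6% each, against 3.24% and 2.46% of all genes). Scaled by library totals alone, which moves the median of all genes from -0.02 to -0.26 on the log2 scale, 5 were higher and 11 lower. The median size of the log2 fold change was 0.57 over the members and 0.24 over all genes, while the medians with sign were -0.15 and -0.02. The 3 C59A libraries did not overlap the 3 WT libraries for 26 of 51 members (51%, against 24.6% of all genes), and 24 of 51 log2 fold changes were positive (47.1%, against 47.6%). The count of called members fell to 11 without WT replicate 1 and to 10 without C59A replicate 1, while that of all genes fell from 975 to 530 and 536. With the mitochondrial share as a covariate it was 12, of which 8 were higher and 4 lower, with 434 of all genes called.

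**Figure D2:**
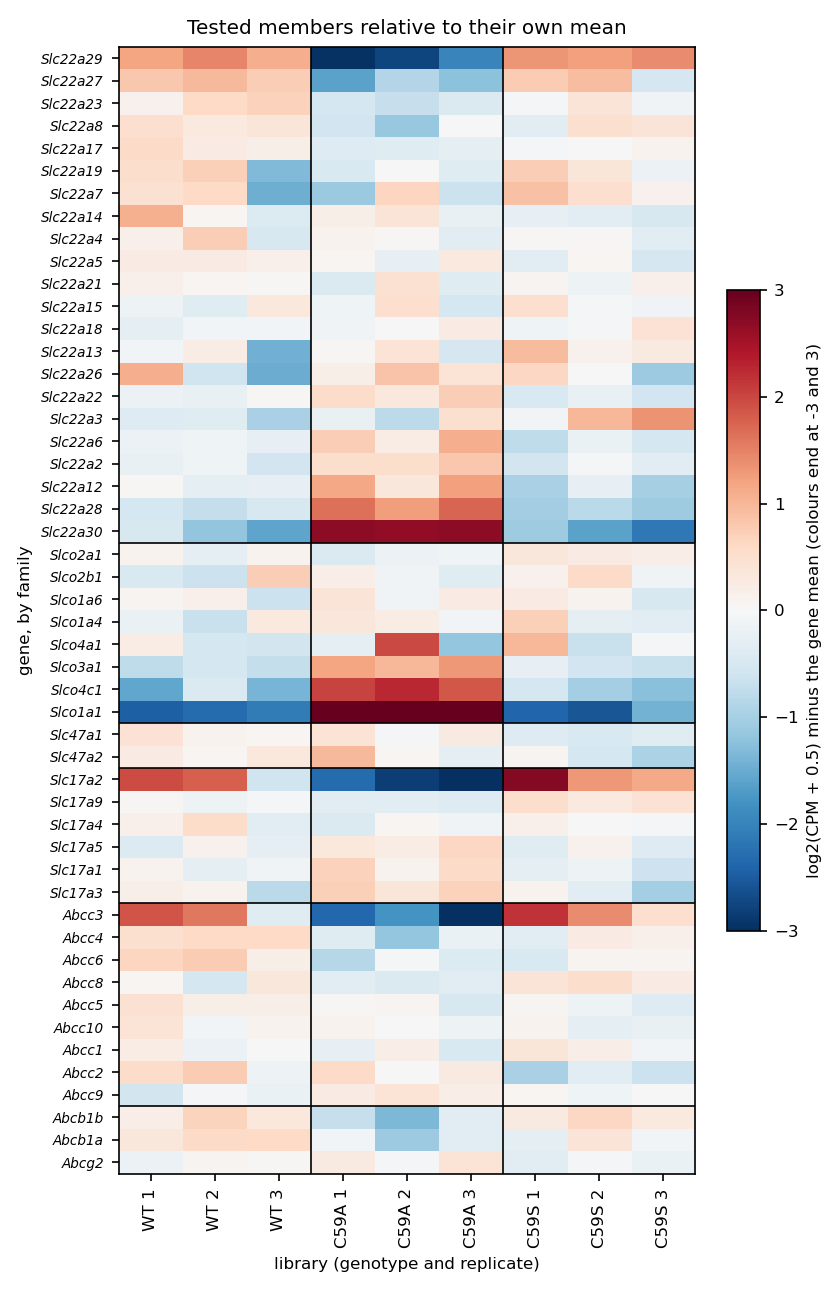
Heat map of 50 of the 51 tested members (rows, by family and then by fold change of C59A against WT) in the 9 libraries (columns), coloured by log2(CPM + 0.5) minus the mean of the gene. Slc22a30, Slc22a28, Slco1a1, Slco4c1 and Slco3a1 are red in all 3 C59A libraries, and Slc22a29, Slc22a27, Slc17a2 and Abcc3 are blue there.

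Within the run of neighbours on chromosome 19, Slc22a28 stood at 29.4, 25.9 and 30.3 CPM in WT, at 137, 102 and 146 CPM in C59A and at 20.4, 24.0 and 20.2 CPM in C59S. All 3 C59A libraries lay above all others, with a log2 fold change relative to WT of 2.17 ± 0.15 (SE; edgeR adjusted p = 1.85e-05). Slc22a30 stood at 27.1, 16.7 and 12.5 CPM in WT, at 250, 246 and 249 CPM in C59A and at 18.1, 12.3 and 8.29 CPM in C59S. Its C59A libraries were again the 3 highest and lay close together, with a log2 fold change of 3.72 ± 0.33 (edgeR adjusted p = 0.000280).

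Slc22a29, which lies between these genes, went the other way. It stood at 53.9, 65.5 and 50.7 CPM in WT, at 2.59, 3.06 and 5.57 CPM in C59A and at 60.0, 56.0 and 63.8 CPM in C59S. The C59A libraries lay far below the others without overlap, and the log2 fold change against WT was -3.90 ± 0.24 (edgeR adjusted p = 1.44e-05), a fall of 15.0-fold. Slc22a27 was expressed at a low level, with 3.11, 3.52 and 2.95 CPM in WT, 0.181, 0.623 and 0.381 CPM in C59A and 2.98, 3.38 and 0.944 CPM in C59S. The 3 C59A libraries were the lowest, close to the limit set by 3 reads, and the log2 fold change against WT was -2.99 ± 0.51 (edgeR adjusted p = 0.00620).

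These genes share sequence, so reads may have been split between them. Of all 100-base windows in GENCODE M21 transcripts, 37.0% of those of Slc22a28 and 21.1% of those of Slc22a30 also occur in another member. For Slc22a27 and Slc22a29 the shares are 7.31% and 7.51%. Slc22a28 and Slc22a30 share most with each other, as do Slc22a27 and Slc22a29. The shared windows number 705 for Slc22a28, 709 for Slc22a30, 157 for Slc22a27 and 183 for Slc22a29. These counts are unequal within each pair, so some windows also occur in members outside it. Summed as pairs, Slc22a28 and Slc22a30 rose from 42.5 to 56.5 CPM (WT) to 349 to 395 CPM (C59A), a log2 fold change of 2.99 ± 0.17 (edgeR adjusted p = 2.67e-06). The sum of Slc22a27 and Slc22a29 fell from 53.6 to 69.0 CPM (WT) to 2.77 to 5.95 CPM (C59A), a log2 fold change of -3.84 ± 0.23 (edgeR adjusted p = 7.03e-06). In each pair both genes had moved the same way, so the sum was bound to keep that direction. The sums do not show how reads were split within a pair or with members outside it, and that of Slc22a27 and Slc22a29 is mostly Slc22a29.

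The run holds 8 members with gaps of at most 500000 bases. In chromosomal order the log2 fold changes of C59A against WT were -0.47 for Slc22a19, 0.45 for Slc22a26, -2.99 for Slc22a27, 2.17 for Slc22a28, -3.90 for Slc22a29, 3.72 for Slc22a30, -0.88 for Slc22a8 and 0.91 for Slc22a6. The sign changed at every step, although the first 2 genes (edgeR adjusted p = 0.629 and 0.779) and Slc22a8 (0.0991) did not pass.

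**Figure D3:**
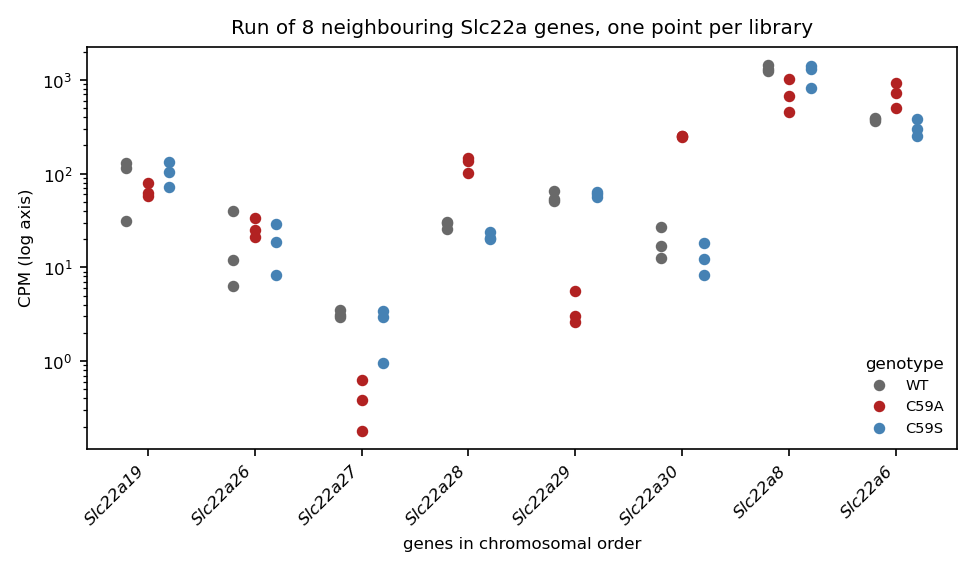
CPM (log axis) of the 8 neighbouring Slc22a genes of chromosome 19 in chromosomal order, not to distance, with 1 point per library and genotypes by colour. C59A points lie above both other genotypes at Slc22a28, Slc22a30 and Slc22a6 and below them at Slc22a27 and Slc22a29, while WT and C59S points lie near each other at most genes.

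Slc22a6 and Slc22a8 encode OAT1 and OAT3, the basolateral exchangers that take up p-aminohippurate and many anionic drugs. Slc22a6 stood at 384, 392 and 362 CPM in WT, at 723, 506 and 917 CPM in C59A and at 253, 378 and 298 CPM in C59S. All 3 C59A libraries were higher than all others but differed widely among themselves, and the log2 fold change against WT was 0.91 ± 0.22 (edgeR adjusted p = 0.0312). The call was lost without any one of WT replicates 1, 2 and 3, C59A replicates 1 and 3 and C59S replicate 3, with log2 fold changes of 0.70 to 1.11 and adjusted p up to 0.115 over all libraries left out. Slc22a8 stood at 1432, 1246 and 1293 CPM in WT, at 674, 459 and 1021 CPM in C59A and at 810, 1409 and 1316 CPM in C59S. The C59A libraries were all below WT but overlapped C59S, and the log2 fold change of -0.88 ± 0.28 did not pass (edgeR adjusted p = 0.0991). Without C59A replicate 3 it was -1.22 with adjusted p = 0.0380.

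Slc22a12 encodes URAT1, the apical exchanger that reabsorbs urate. It stood at 573, 453 and 473 CPM in WT, at 1242, 703 and 1310 CPM in C59A and at 282, 468 and 278 CPM in C59S. The C59A libraries were the 3 highest, with a log2 fold change against WT of 1.12 ± 0.27 (edgeR adjusted p = 0.0323). This call was lost without any one of the 3 WT replicates or without C59A replicate 1 or 3, with log2 fold changes of 0.96 to 1.35 and adjusted p up to 0.118. Slc22a22, which encodes the prostaglandin transporter of rodent kidney known as OAT-PG, stood at 36.1, 35.0 and 42.0 CPM in WT, 59.9, 50.5 and 67.6 CPM in C59A and 29.4, 35.0 and 27.1 CPM in C59S. Its C59A libraries did not overlap the others (0.65 ± 0.14, edgeR adjusted p = 0.0214), but removal of WT replicate 1 or 2, or of C59A replicate 1 or 3, ended the call, with adjusted p up to 0.0851.

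Of the 13 tested genes of the anion and urate branch of SLC22, 5 were higher and 2 lower in C59A against WT, against 3.24% and 2.46% of all genes. Their median log2 fold change was 0.30. Scaled by library totals alone, 2 of the 13 were higher and 3 lower, since Slc22a6 (0.67), Slc22a12 (0.88) and Slc22a22 (0.41) no longer passed and Slc22a8 (-1.13) did. Slc22a7 and Slc22a19, known as female-biased, and Slc22a13, which encodes an anion and urate exchanger, did not pass (edgeR adjusted p = 0.845, 0.629 and 0.752). WT replicate 3 stood apart for all 3 of them. Slc22a7 lay at 264 and 290 CPM in the other WT libraries and at 68.8 CPM there, and within C59A it ranged from 88.9 to 300.4 CPM. Slc22a19 had 116, 131 and 31.6 CPM in WT and Slc22a13 had 80.4, 98.7 and 30.8 CPM. With this spread the WT values covered or nearly covered those of C59A. For Slc22a13, 21.8% of the 100-base transcript windows also occur in a gene outside the set.

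Among the cation and carnitine transporters, 1 of 6 tested members changed, against 5.7% of all genes. Slc22a2, the gene of the basolateral cation transporter OCT2, stood at 188, 202 and 148 CPM in WT, at 317.9, 318.3 and 385 CPM in C59A and at 150.2, 214 and 176 CPM in C59S. The 3 C59A libraries were the highest by a clear gap, with a log2 fold change against WT of 0.92 ± 0.17 (edgeR adjusted p = 0.00975), or 0.69 with adjusted p = 0.0578 when scaled by library totals alone. The carnitine transporter gene Slc22a5 (-0.16 ± 0.17, adjusted p = 0.659) and the ergothioneine transporter gene Slc22a4 (-0.26 ± 0.27, adjusted p = 0.628) did not pass, and their C59A libraries overlapped WT. Slc22a5 shares 12.9% of its transcript windows with Slc22a21, and their sum gave -0.16 ± 0.17 (edgeR adjusted p = 0.640).

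Orphan SLC22 members were lower or not called. Slc22a23 stood at 60.5, 83.7 and 90.1 CPM in WT, at 38.2, 33.8 and 40.7 CPM in C59A and at 54.0, 72.1 and 51.1 CPM in C59S. Its C59A libraries were the 3 lowest (log2 fold change against WT -1.05 ± 0.17, edgeR adjusted p = 0.00503). Slc22a17, which encodes a lipocalin receptor, stood at 112, 89.3 and 85.0 CPM in WT, 57.0, 58.2 and 60.6 CPM in C59A and 71.8, 74.7 and 79.9 CPM in C59S. The 3 genotypes did not overlap, with C59A lowest and WT highest, and the log2 fold change of C59A against WT was -0.71 ± 0.13 (edgeR adjusted p = 0.00716). Slc22a18, with WT libraries at 410 to 469 CPM and C59A libraries at 464 to 587 CPM, did not pass (0.20 ± 0.18, adjusted p = 0.564; -0.04 scaled by library totals alone).

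In the OATP family, 3 of 8 tested members rose in C59A and none fell, against 3.24% and 2.46% of all genes. Slco1a1 (ENSMUSG00000041698), the gene of an apical transporter of steroid conjugates and other anions, stood at 68.8, 50.03 and 71.3 CPM in C59A. It had 0.0421, 0.1004 and 0.190 CPM in WT, and 0.0745, 0 and 0.607 CPM in C59S. All 3 C59A libraries lay far above the others, of which C59S replicate 3, the library that also had Eif2s3y at 1.15 CPM, was the highest, and the part of such traces in its value was not tested. Over the groups this was 3523 reads in C59A against 7 in WT, a ratio of scaled reads of 589 with an exact 95% interval of 286 to 1467 that covers counting error only, and the ratio to the 11 reads of C59S was 370 (207 to 742). The fitted log2 fold change against WT was 9.11 ± 0.57 (edgeR adjusted p = 5.61e-05), a value that depends on the prior count at so few reads. The other genes of its run on chromosome 6 had no call, with log2 fold changes of 0.37 for Slco1a4, 0.29 for Slco1a6 and 0.57 for Abcc9 (edgeR adjusted p = 0.668, 0.547 and 0.0683), and Slco1c1, Slco1b2 and Slco1a5 had too few reads to test.

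Slco4c1 (ENSMUSG00000040693), for a basolateral carrier of cardiac glycosides and thyroid hormone, stood at 2.31, 5.62 and 2.62 CPM in WT, at 33.2, 39.2 and 29.6 CPM in C59A and at 5.22, 3.56 and 2.97 CPM in C59S. Every C59A library was more than 5 times the highest of the others, with a log2 fold change against WT of 3.28 ± 0.33 (edgeR adjusted p = 0.000342). Slco3a1 (ENSMUSG00000025790), for a prostaglandin and anion carrier, stood at 32.4, 38.0 and 33.4 CPM in WT, at 127, 110 and 137 CPM in C59A and at 46.7, 36.7 and 34.7 CPM in C59S. The C59A libraries again lay above all others (1.85 ± 0.14, edgeR adjusted p = 4.72e-05). Summed over the family, OATP genes had 443 ± 8.07 CPM in C59A, against 227 ± 12.5 for WT and 261 ± 47.9 for C59S (SD, n = 3). The small spread in C59A depends on Slco4a1, which added 84.8 CPM in replicate 2 and 17.4 and 9.05 CPM in replicates 1 and 3.

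Among the OATP members that did not pass, Slco4a1 had the widest spread. It lay at 84.8 CPM in C59A replicate 2 and at 17.4 and 9.05 CPM in the other C59A libraries, against 14.2 to 24.4 CPM in WT. That replicate also had the highest sums of thick ascending limb markers (2236 CPM, against 880 and 1047 in the other C59A libraries) and of collecting duct markers (955 CPM, against 485 and 578), all of whose listed genes were in the table, and the part of these in the Slco4a1 value was not tested. Slco2b1 (-0.10 ± 0.36, edgeR adjusted p = 0.917) was highest in WT replicate 3, at 45.0 CPM against 16.9 and 19.4 CPM.

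Of the ABCC genes, which are not all pumps, 3 of 9 tested members fell in C59A and none rose, against 2.46% and 3.24% of all genes. Abcc3, the gene of the basolateral conjugate pump MRP3, stood at 86.2, 68.9 and 17.7 CPM in WT, at 4.10, 6.23 and 2.33 CPM in C59A and at 104, 61.9 and 32.6 CPM in C59S. The C59A libraries were the 3 lowest, and replicate 3 was the lowest of WT and of C59S (log2 fold change of C59A relative to WT -3.78 ± 0.76, edgeR adjusted p = 0.0337). It lost the call without any one of WT replicates 1 and 2, the C59A replicates and C59S replicate 2, with log2 fold changes of -4.21 to -3.37 and adjusted p up to 0.128. Abcc4, for the apical pump MRP4 that exports cyclic nucleotides and anions, stood at 57.2, 62.3 and 62.3 CPM in WT, 31.8, 18.1 and 35.4 CPM in C59A and 32.3, 48.5 and 45.5 CPM in C59S. Its C59A and C59S libraries were all below WT and overlapped each other (C59A against WT -1.09 ± 0.23, edgeR adjusted p = 0.0199), and the call was lost without any one of the WT replicates or C59A replicate 1, with adjusted p up to 0.0592.

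Abcc6, whose human counterpart is mutated in pseudoxanthoma elasticum, stood at 50.4, 55.0 and 36.2 CPM in WT, 17.7, 31.4 and 24.2 CPM in C59A and 23.5, 33.9 and 34.0 CPM in C59S. Both mutant genotypes lay below WT without overlap, with a log2 fold change of C59A against WT of -0.95 ± 0.23 (edgeR adjusted p = 0.0383). Removal of any one of WT replicates 1 and 2, C59A replicates 1 and 3 and C59S replicates 2 and 3 ended the call (adjusted p up to 0.132). The most abundant ABCC gene, Abcc2 for the apical conjugate pump MRP2, did not differ beyond its spread in C59A, at 297, 341 and 180 CPM in WT and 298, 198 and 242 CPM in C59A (-0.15 ± 0.25, edgeR adjusted p = 0.795). In all, 8 of the 9 ABCC log2 fold changes were negative, with a median of -0.38. The exception was Abcc9, for a subunit of ATP-sensitive potassium channels (0.57 ± 0.16, adjusted p = 0.0683).

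P-glycoprotein, which expels lipophilic drugs, is encoded in mice by Abcb1a and Abcb1b. Abcb1b stood at 17.5, 24.1 and 18.9 CPM in WT, at 9.11, 5.66 and 11.8 CPM in C59A and at 18.4, 23.4 and 18.6 CPM in C59S. The C59A libraries were the 3 lowest (-1.18 ± 0.24, edgeR adjusted p = 0.0150), and without C59A replicate 1 the adjusted p was 0.0591. Abcb1a, at 7.91, 9.39 and 9.67 CPM in WT, 5.85, 2.66 and 4.76 CPM in C59A and 4.96, 8.20 and 5.87 CPM in C59S, was below WT in all C59A libraries but did not pass (-1.02 ± 0.28, adjusted p = 0.0570). The 2 genes share 9.03% of the Abcb1a and 6.04% of the Abcb1b transcript windows, and their sum had a log2 fold change of -1.13 ± 0.23 (edgeR adjusted p = 0.0175). Abcg2, the gene of an apical pump for urate and drugs, overlapped between C59A and WT (0.25 ± 0.15, adjusted p = 0.379).

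In the SLC17 family, 1 of 6 tested members passed, against 5.7% of all genes. Slc17a2, a gene related to sodium-phosphate cotransporters, stood at 19.6, 17.3 and 2.90 CPM in WT, at 0.543, 0.226 and 0.0476 CPM in C59A and at 34.5, 12.3 and 10.9 CPM in C59S. The C59A libraries were the 3 lowest with 14 reads in all, and WT replicate 3 was far below the other WT libraries. The log2 fold change against WT was -5.66 ± 1.10 (edgeR adjusted p = 0.0268), and the call was lost without WT replicate 1 or 2 or any one of the C59A replicates, with log2 fold changes of -6.62 to -5.10 and adjusted p up to 0.123. Its neighbours on chromosome 13 are Slc17a3 and Slc17a1, which encode apical urate and anion carriers and lay higher in all C59A than in all WT libraries without passing (0.72 ± 0.30 and 0.57 ± 0.18, edgeR adjusted p = 0.214 and 0.0967). Slc17a5, the gene of the lysosomal sialic acid exporter, had the same size of difference as Slc17a1 (0.57 ± 0.18, adjusted p = 0.0982). Neither MATE gene was called, and Slc47a1 was level between C59A and WT (0.01 ± 0.17, adjusted p = 0.979; -0.22 scaled by library totals alone).

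Some members are known for sex-biased levels in mouse kidney, and lists of these were drawn up from that knowledge. Of 5 genes known as male-biased (Slco1a1, Slc22a6, Slc22a12, Slc22a28 and Slc22a30), 5 rose in C59A against WT and 5 were higher against C59S. Of all genes, 3.24% and 3.35% did so. The median log2 fold change of these 5 against WT was 2.17. Scaled by library totals alone, 3 of the 5 rose against WT. Of 6 genes known as female-biased, Slc22a27, Slc22a29, Abcc3 and Abcc4 fell against WT, where 2.46% of all genes did. Slc22a7 and Slc22a19 did not pass, and the median of the 6 was -2.04. The medians of these lists in C59S against WT were -0.40 and 0.12, with no member called. The lists were drawn up with earlier results of these libraries known and are not independent evidence of a direction. As given above, Xist was at most 0.724 CPM and the Y-linked Eif2s3y at least 81.9 CPM in all 3 C59A libraries.

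**Figure D4:**
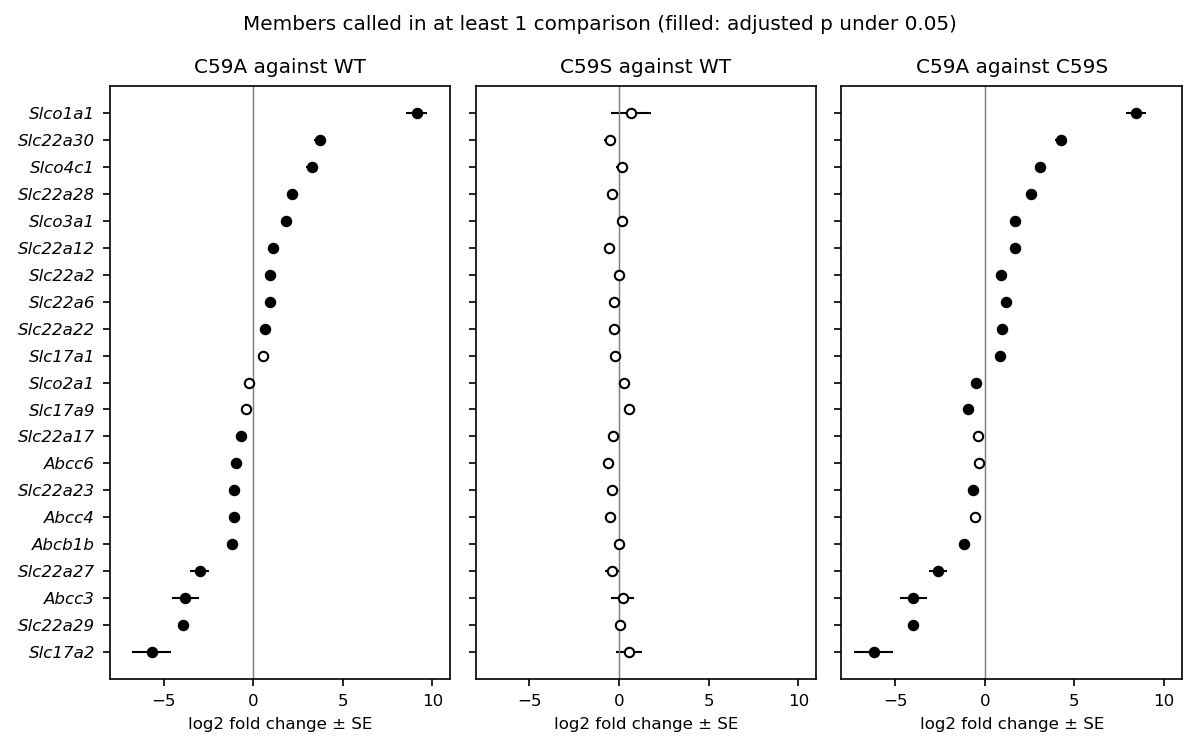
Log2 fold changes ± SE of the 21 members called in at least 1 comparison, for C59A against WT, C59S against WT and C59A against C59S, with filled points for adjusted p under 0.05. In the middle panel all points are open and lie between -0.63 and 0.67, while the left panel runs from -5.66 for Slc17a2 to 9.11 for Slco1a1.

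For C59S against WT, 0 of 51 members passed the same edgeR test (0%, as for all genes, 0%), and the median log2 fold change was -0.05 over the members and 0.01 over all genes. Of the 51, 22 log2 fold changes were positive (43.1%, against 51.1% of all genes). At unadjusted p under 0.05 there were 11 members (21.6%, against 18.1% of all genes), 2 higher (3.92%, against 8.23%) and 9 lower (17.6%, against 9.84%). The groups did not overlap for 12 members, a share near the background (23.5%, against 22.5% of all genes), with 3 higher (5.88%, against 11.2%) and 9 lower (17.6%, against 11.3%). The same-numbered libraries of WT and C59S deviated together, and those of WT and C59S with unlike numbers did not. Some with unlike numbers in other groups also deviated together, so pairing is not shown. In a fit of the 6 WT and C59S libraries with the replicate number as a block 3 members fell, among them Slc47a1 (-0.60 ± 0.13, edgeR adjusted p = 0.0481) and Abcc4 (-0.56 ± 0.12, 0.0495). This is 6% of the 50 members tested there, against 3.82% of all genes (638), while the block in a fit of all 9 libraries gave 0 members. DESeq2 called 641 genes (3.75%) and 3 of the 51 members (5.88%), which were Abcc2 (-1.07 ± 0.25, adjusted p = 0.00387), Slc47a1 (-0.61 ± 0.16, 0.0140) and Slc22a3 (2.19 ± 0.69, 0.0442).

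Slc47a1, the apical cation exporter gene, stood at 918, 731 and 713 CPM in WT, at 526, 501 and 532 CPM in C59S and at 905, 657 and 820 CPM in C59A. The C59S libraries lay close together and below all others, with a log2 fold change against WT of -0.60 ± 0.17 (edgeR adjusted p = 0.146). Abcc2 stood at 297, 341 and 180 CPM in WT and at 102, 160 and 128 CPM in C59S. Its C59S libraries were the 3 lowest of all 9, with a log2 fold change against WT of -1.07 ± 0.25 (edgeR adjusted p = 0.130), and without WT replicate 3 it was -1.29 with adjusted p = 0.0183. The proximal tubule markers, which mark the cells where MATE1 and MRP2 are known to reside, were also lower in sum in all 3 C59S libraries (8771 to 10607 CPM, against 12177 to 13541 in WT, 10 of 10 markers in the table). Slc34a1, with a mean of 6615 CPM in WT and 4062 CPM in C59S, made up most of the drop in the sum. The log2 fold changes of C59S against WT were negative for 7 of the 10 and positive for Aqp1 (0.20), Slc27a2 (0.09) and Ggt1 (0.06), none of the 10 was called by edgeR, and the part of these cells in the Slc47a1 and Abcc2 values was not tested.

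Slc22a3, for the cation transporter OCT3, had few reads and was 1 of the 2 members higher in C59S than in WT at unadjusted p under 0.05. It stood at 0.547, 0.552 and 0.190 CPM in WT, at 0.783, 2.21 and 2.97 CPM in C59S and at 0.663, 0.283 and 1.38 CPM in C59A. The 3 C59S libraries lay above WT, and the log2 fold change was 2.16 ± 0.65 (edgeR adjusted p = 0.155). The 4 adipocyte markers summed to 3.17, 272 and 596 CPM in the same C59S libraries, to 43.1, 1.13 and 126 CPM in C59A and to 0.452 to 0.810 CPM in WT, and their part in the Slc22a3 values was not tested. The other member at unadjusted p under 0.05 that was higher was Slc17a9, the gene of the vesicular nucleotide transporter, whose C59S libraries had 2.97 to 3.58 CPM and whose WT libraries had 2.06 to 2.44 CPM (0.56 ± 0.24, adjusted p = 0.255).

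The last comparison sets the 2 alleles against each other, and it shares its C59A libraries with the first. Of 51 members 18 passed (35.3%, against 5.91% of all genes), 10 higher in C59A (19.6%, against 3.35%) and 8 lower (15.7%, against 2.56%). Scaled by library totals alone, 9 were higher and 4 lower. The groups did not overlap for 27 members (52.9%, against 29.2% of all genes), and 27 log2 differences were positive (52.9%, against 49%). The count fell to 10 without C59A replicate 1, to 11 without C59A replicate 3, to 11 without C59S replicate 3 and to 7 without C59S replicates 2 and 3 together, the C59S libraries with the adipocyte markers given above. The counts of all genes fell from 1012 to 370, 405, 318 and 125 in the same fits.

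The lead members had differences of like size against C59S. They were 8.44 ± 0.54 for Slco1a1, 4.25 ± 0.34 for Slc22a30, 3.10 ± 0.32 for Slco4c1, 2.57 ± 0.15 for Slc22a28 and 1.66 ± 0.14 for Slco3a1 (edgeR adjusted p = 6.08e-05, 0.000158, 0.000536, 4.58e-06 and 6.82e-05). On the lower side stood Slc22a29 at -3.98 ± 0.24 (9.64e-06), Slc22a27 at -2.62 ± 0.51 (0.0144), Abcb1b at -1.18 ± 0.24 (0.0168) and Slc22a23 at -0.65 ± 0.17 (0.0494). Slc17a2 at -6.21 ± 1.10 (0.0205) and Abcc3 at -3.98 ± 0.76 (0.0310) were also lower.

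URAT1, OAT1, OCT2 and OAT-PG genes were all higher in C59A than in C59S. The log2 differences were 1.66 ± 0.27 for Slc22a12, 1.21 ± 0.22 for Slc22a6, 0.92 ± 0.17 for Slc22a2 and 0.96 ± 0.14 for Slc22a22 (edgeR adjusted p = 0.00564, 0.00979, 0.0119 and 0.00313). Of these, Slc22a6 and Slc22a2 were lost without C59S replicate 3 (adjusted p = 0.0552 and 0.0625). Abcb1b was lost without C59A replicate 1 or C59S replicate 2 or 3, and Slc22a27 without C59A replicate 1 or 3 or C59S replicate 2, with adjusted p up to 0.0722 and 0.0645. Abcc3 was lost without WT replicate 2, any one of the C59A replicates or C59S replicate 1 or 2, and Slc17a2 without any one of the C59A replicates, with adjusted p up to 0.117 and 0.101. Slc22a23 was lost without any one of 7 libraries (all but WT replicates 1 and 3, adjusted p up to 0.163).

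The apical exporter genes Slc47a1 and Abcc2 were higher in all C59A than in all C59S libraries but did not pass (0.61 ± 0.17 and 0.92 ± 0.25, edgeR adjusted p = 0.0593 and 0.0564). Without C59A replicate 2 both passed (0.0371 and 0.0451), and Abcc2 also without WT replicate 2 or 3 (0.0396 and 0.0190).

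A further 3 members passed here and not in C59A against WT. The difference between these comparisons is C59S against WT, where they had edgeR adjusted p = 0.493 (Slc17a1), 0.302 (Slco2a1) and 0.255 (Slc17a9). Slc17a1, for the apical urate and anion carrier NPT1, stood at 336, 227 and 311 CPM in C59A, 171, 188 and 137 CPM in C59S and 224, 170 and 195 CPM in WT. Its C59A libraries were the 3 highest, with a log2 difference to C59S of 0.82 ± 0.18 (edgeR adjusted p = 0.0259). Slco2a1, for the prostaglandin uptake carrier, stood at 34.9, 41.8 and 43.3 CPM in C59A, 59.6, 55.9 and 54.6 CPM in C59S and 50.9, 39.2 and 50.7 CPM in WT. The C59S libraries were the 3 highest here (-0.50 ± 0.13, adjusted p = 0.0486). The 4 endothelial markers, all in the table, summed to 337 to 517 CPM in C59S, 214 to 242 CPM in C59A and 134 to 306 CPM in WT. Between the alleles, edgeR called Cdh5 (-0.95, adjusted p = 0.0478) and Pecam1 (-0.92, adjusted p = 0.0397) lower in C59A, and the part of the endothelium in the Slco2a1 values was not tested.

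Slc17a9 stood at 1.75, 1.75 and 1.67 CPM in C59A, below all WT libraries, and at 3.58, 2.97 and 3.37 CPM in C59S, above them (-0.94 ± 0.25, edgeR adjusted p = 0.0471). The call of Slc17a1 was lost without any one of 4 libraries (C59A replicates 1 and 3, C59S replicates 1 and 3), and those of Slco2a1 and Slc17a9 without any one of 7 and 8 libraries. The libraries whose removal left the call were WT replicates 2 and 3 for Slco2a1 and WT replicate 3 for Slc17a9. The highest adjusted p over all libraries left out were 0.119, 0.201 and 0.150 for Slc17a1, Slco2a1 and Slc17a9.

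Genes that work with these transporters were taken from a separate list. It holds the dicarboxylate carriers that feed OAT1 and OAT3, scaffold proteins such as PDZK1, the sodium pump, and other carriers of urate, bile acids, peptides and nucleosides. Of its 19 tested genes, 0 passed in C59A against WT by edgeR, where 5.7% of all genes did, and the median log2 fold change was -0.17. DESeq2 and voom each called 1, Slc2a9, as lower. Against C59S, Car4, a membrane carbonic anhydrase (0.89 ± 0.17, edgeR adjusted p = 0.0130), and Slc16a9, a carnitine and urate-linked carrier (0.94 ± 0.24, adjusted p = 0.0444), were higher in C59A. The basolateral urate carrier gene Slc2a9 stood at 25.2, 39.2 and 36.3 CPM in WT and 14.5, 12.0 and 22.4 CPM in C59A, lower without overlap but not called by edgeR (-1.03 ± 0.27, adjusted p = 0.0527). In C59S against WT 0 of the 19 passed, as for all genes. With the replicate number as a block in the 6 libraries 3 passed (Slc2a9, Slc16a9 and Slc9a3r2, 1 higher and 2 lower), where 3.82% of all genes did.

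Transcription factors and hormone receptors that are known to act on transporter genes formed a further list, with 21 genes tested. In C59A against WT, 2 rose and 2 fell by edgeR, where 3.24% and 2.46% of all genes did. By DESeq2 4 rose and 3 fell, and by voom 1 and 2, while these tools called 1613 and 1025 of all genes. The bile acid receptor gene Nr1h4 stood at 94.6, 92.5 and 101 CPM in WT, at 154, 192 and 253 CPM in C59A and at 80.8, 76.5 and 68.4 CPM in C59S. The 3 genotypes did not overlap (C59A against WT 1.06 ± 0.17, edgeR adjusted p = 0.00411). The prolactin receptor gene Prlr stood at 124.3, 124.0 and 100.05 CPM in WT, at 21.0, 10.9 and 29.0 CPM in C59A and at 166, 108 and 107 CPM in C59S. Its C59A libraries were far below the others (-2.51 ± 0.32, adjusted p = 0.00269). The estrogen receptor gene Esr1 was called higher (0.75 ± 0.20, edgeR adjusted p = 0.0464), but not by voom, nor with library totals alone or the replicate block in the 2 groups, and the xenobiotic receptor gene Nr1i2 fell (-0.96 ± 0.18, adjusted p = 0.01). Hnf4a (0.29 ± 0.21, edgeR adjusted p = 0.465) did not pass. In C59S against WT 0 of the 21 passed by edgeR, and 5 had unadjusted p under 0.05, where 18.1% of all genes did. DESeq2 called 2 as lower, where it called 3.75% of all genes in either direction, and voom called 0.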

How the data were processed

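RNA sequencing of mouse kidney gave 9 libraries in 3 genotypes, grouped by the labels. Per the submitters' processing notes, reads were handled with CASAVA 1.8, fastp, HISAT2 2.0.5 and featureCounts 1.5.0-p3 on GRCm38, with no roles, strand setting or annotation release, and the notes also name DESeq2 1.20.0. The deposited counts are whole reads per gene without normalization, and the FPKM deposited by the authors are per gene length and library. Genes were filtered with filterByExpr (17114 of 52636 kept), scaled with TMM and fitted in 1 model of the 9 libraries by edgeR 4.0.16 under R 4.3.3 (robust quasi-likelihood, Benjamini-Hochberg adjustment). Members with adjusted p under 0.05 were called. An SE is the log2 fold change over the square root of F. limma 3.58.1 and DESeq2 1.42.0 served as alternatives. Only the main edgeR fit, for C59A against WT, was tried on simulated counts. The alternatives and the sequence comparisons were not tested in this way.

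The members and lists were chosen with earlier results of these data known. Members called in any comparison are named with each library's value, and those with a mean of at least 10 FPKM or best known in their family by level. Same-numbered WT and C59S libraries correlated in their deviations from the group means (0.318, 0.195 and 0.256). For C59A and WT these values were 0.0149, -0.0944 and 0.0491. WT and C59S libraries with unlike numbers gave -0.25 to 0.0085. Between C59A and C59S, some libraries with unlike numbers correlated to a degree like that of same-numbered WT and C59S libraries. The values were 0.294 for C59A replicate 2 and C59S replicate 1, and 0.248 for C59A replicate 3 and C59S replicate 2. The column names also number the libraries in part otherwise than the titles. Pairing by number is therefore not shown, and the block served as an alternative only. Libraries of a genotype differed with chi-square per degree of freedom of 23.5 to 130, so no library was a duplicate. Promoters are from RefSeq (GRCm38.p6), and transcripts from GENCODE M21, which held 63 of 63 member identifiers, 55 of them with the same coordinates. Some genes, 1 of them a member that stays in the counts, are not reported here. Alternatives are described with the results below.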

Additional observations from a re-analysis of the deposited data

How the results depend on the processing

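Over 36 calls of members in C59A against WT or C59S, 13 were kept under every alternative tried, 18 were lost when some 1 library was left out and 0 changed sign. Slco1a1, Slc22a28, Slc22a29, Slc22a30, Slco3a1 and Slco4c1 kept their calls in both comparisons, and Slc22a23 against WT. The count of called members in C59A against WT was 11 with the replicate block in these 2 groups, 9 with limma on log2(FPKM + 1) without a filter, 10 at adjusted p under 0.01 and 10 to 18 with 1 library left out. In C59A against C59S it was 8 with the replicate block in the 2 groups, 8 with limma on log2(FPKM + 1) without a filter, 9 at adjusted p under 0.01, 7 without C59S replicates 2 and 3 (chosen after seeing the data) and 10 to 20 with 1 library left out. In C59S against WT it was 3 with DESeq2, 3 with the replicate block in the 2 groups and 0 to 1 with 1 library left out. The same numbers in C59A and the other genotypes did not deviate together, and for WT and C59S pairing is not shown either. Every block thus rests on shared numbers only. Summing related gene pairs was also chosen after seeing the data. The cause of each change was not tested. Members under 0.112 to 0.202 CPM could not be told from absent.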
